A study of Mus musculus with 12 samples.

Results

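Mouse optic nerves exposed to oxygen-glucose deprivation (OGD) and CX-4945 were compared with untreated nerves (Control), by the microRNAs (miRNAs) each contained. The nerves were isolated from male C57Bl/6 mice, and per the series' design text the drug was given after OGD. The comparison used 6 of the 12 samples of the study, 3 of OGD+CX-4945 and 3 of Control, as the agent field of the labels assigns them. The other 6 samples were OGD alone and OGD with MS-275, and they entered only the shared estimate of the spread and the values set beside the comparison. OGD removes oxygen and glucose from the bath and is a laboratory model of ischaemia, and CX-4945 (silmitasertib) inhibits casein kinase 2. Both exposures separate the groups, so a difference here cannot be told apart into a part from OGD and a part from the drug. The sources used here do not give age, dose, duration or the number of animals behind a sample. No label says that replicates came from separate animals or cultures, so p-values measure the spread between these samples, which may be technical.

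Counting was done on an nCounter panel, in which a tag is ligated to each mature miRNA and a fluorescent barcode is counted for each tagged molecule, with no amplification. The panel held 566 mouse miRNA probes. A probe was tested when its count passed the background limit of a lane, the mean plus 2 SD of 8 negative probes, in 3 or more of the 12 lanes, and 217 probes met that. Of these, 173 passed the limit in all 6 lanes of the comparison.

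The optic nerve is a white-matter tract made of retinal ganglion cell axons, oligodendrocytes, astrocytes, microglia and vessels, with no neuronal cell bodies of its own. Mature miRNAs pair through their seed, bases 2 to 8, with sites in messenger RNAs and lower the output of those messages, and many are restricted to a cell type. In injured white matter the miRNAs of oligodendrocytes, of blood and vessel cells and of axons can therefore report on different compartments of the same sample. Casein kinase 2 is a widely expressed serine/threonine kinase with many substrates, among them proteins of axons and of cell survival pathways.

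The mature sequences of the miRNAs on which the comparison turns are shown first, 5′ to 3′, with the seed in capitals, from RefSeq for GRCm38.p6. The probes carry older names for most of them, and their arms were assigned from general knowledge of the present names. miR-144 and miR-451 (mature sequences at chr11:78073047-78073066 and chr11:78073186-78073207) come from neighbouring hairpins on the plus strand of chromosome 11, and 99 bases separate the hairpins. These had the lower means with the most evidence among blood-cell miRNAs, and their seeds differ.
miR-144: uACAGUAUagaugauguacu
miR-451: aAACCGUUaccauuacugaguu

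miR-376a, at chr12:109723824-109723844 on the plus strand, had the smallest p among the higher means. Its hairpin lies 241 bases from that of miR-376b (mature sequence at chr12:109723508-109723528) in an imprinted cluster, and the pair is printed to show how close the relatives are. miR-434-3p, at chr12:109594565-109594586 on the plus strand, belongs to the neighbouring imprinted group.
miR-376a: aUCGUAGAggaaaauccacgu
miR-376b: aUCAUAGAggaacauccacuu
miR-434-3p: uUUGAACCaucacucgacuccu

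Both arms of the miR-338 hairpin were tested, at chr11:120014816-120014837 for the 5p arm and chr11:120014781-120014802 for the 3p arm on the minus strand. They are shown because the groups did not overlap for the 5p arm and did for the 3p arm, a difference that was not tested. miR-331-3p (chr10:93963783-93963803, minus strand), miR-423-3p (chr11:77078086-77078108, minus strand) and miR-33 (chr15:82198127-82198147, plus strand) are shown as further miRNAs whose groups did not overlap.
miR-338-5p: aACAAUAUccuggugcugagug
miR-338-3p: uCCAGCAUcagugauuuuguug
miR-331-3p: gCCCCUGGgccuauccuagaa
miR-423-3p: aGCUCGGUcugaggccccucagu
miR-33: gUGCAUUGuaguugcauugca

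miR-22 (chr11:75463772-75463793, plus strand), miR-27a (chr8:84208727-84208747, plus strand) and miR-99a (chr16:77598940-77598961, plus strand) are shown as abundant miRNAs with lower means whose counts also followed a technical control of the lanes. Among the 1679 mature mouse entries of the RefSeq table, the seed of miR-27a is held by 2 and that of miR-99a by 3, and each of the other seeds printed here by 1 entry.
miR-22: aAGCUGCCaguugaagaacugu
miR-27a: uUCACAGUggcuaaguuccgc
miR-99a: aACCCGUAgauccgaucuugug

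The 6 lanes differed in depth and in controls. The total miRNA count was 369903, 358905 and 542399 in the OGD+CX-4945 lanes and 302026, 302003 and 374440 in the Control lanes, and 175 to 211 probes passed the background limit in OGD+CX-4945 against 198 to 212 in Control. The negative probes averaged 19.6 to 23.8 counts in OGD+CX-4945 and 14.6 to 15.5 in Control, which did not overlap (ratio 1.45; exact permutation test, two-sided p = 0.10, the smallest that 3 against 3 allow; adjusted p = 0.35 over 7 lane measures). The ligation controls, spiked RNAs whose count shows how efficiently tags were joined in a lane, had 1667, 2793 and 3787 counts in OGD+CX-4945 and 1386, 1422 and 2369 in Control (exact permutation test, two-sided p = 0.20, adjusted p = 0.42). The 3 OGD+CX-4945 lanes lay 0.444 to 0.466 apart (root mean square log2 difference over the tested probes) and the Control lanes 0.329 to 0.380, while lanes of different groups lay 0.280 to 0.516 apart. OGD+CX-4945 replicates 1, 2 and 3 lay 0.266, 0.553 and 0.245 from the OGD replicate of the same number. The replicate numbers were not taken to pair the samples.

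The labelled tissue was checked against miRNAs of its cell types. All 4 oligodendrocyte markers and all 3 of the astrocyte-associated miR-29 family passed the background limit in all 6 lanes. Of 6 retina and pigment epithelium markers, 5 passed it in none of the 6 lanes and only miR-204 was tested. miR-204 was abundant, at 4660 to 5206 normalised counts in OGD+CX-4945 and 5389 to 5962 in Control. Of 7 epithelial markers 3 passed the background limit in none of the 6 lanes. The neuron-associated miR-124 was abundant, at 7721 ± 678 normalised counts in OGD+CX-4945 and 7886 ± 201 in Control (SD, n = 3 each). A normalised count is a raw count scaled by TMM, a trimmed mean of ratios, to the mean effective total of the 12 lanes. These are bulk samples, so fewer cells of a type and less RNA per cell cannot be told apart.

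No miRNA changed between OGD+CX-4945 and Control at the threshold. At a Benjamini-Hochberg adjusted p under 0.05, 0 of 217 probes (0%) passed edgeR's quasi-likelihood test, and the lowest adjusted p was 0.0678, for miR-144. Before adjustment, 18 probes (8.29%) had p under 0.05, 10 with a higher mean (4.61%) and 8 with a lower mean (3.69%). DESeq2 called 2 probes (0.922%), miR-144 (adjusted p = 0.0102) and miR-376a (adjusted p = 0.0242), and limma-voom called 0 (0%). At an unadjusted p under 0.05 there were 17 probes with DESeq2 and 18 with limma-voom. Over all tested probes 122 had a higher mean (56.2%) and 95 a lower mean (43.8%), and the median log2 fold change, OGD+CX-4945 over Control, was 0.02. For 202 of the 217 probes the 95% interval of the fit excluded a 2-fold change in either direction, and 199 had a log2 fold change within 0.5 of 0. These intervals are for single probes, without adjustment over the 217. Like the p-values, they measure the spread between these samples, which may be technical. The counts depended on which lanes were included. Without OGD+CX-4945 replicate 1 the same test called 6 probes (2.76%), with 38 at an unadjusted p under 0.05. They were miR-144, miR-451, miR-376a, miR-434-3p and miR-129-3p (adjusted p = 0.0409 each), and miR-2133. miR-2133 was below the background limit in all 3 Control lanes and above it in 2 of the OGD+CX-4945 lanes. Its p is therefore not independent of the filter on low counts and is not given. Without Control replicate 2 it called 1, miR-144 (adjusted p = 0.0447), with 11.

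**Figure D1:**
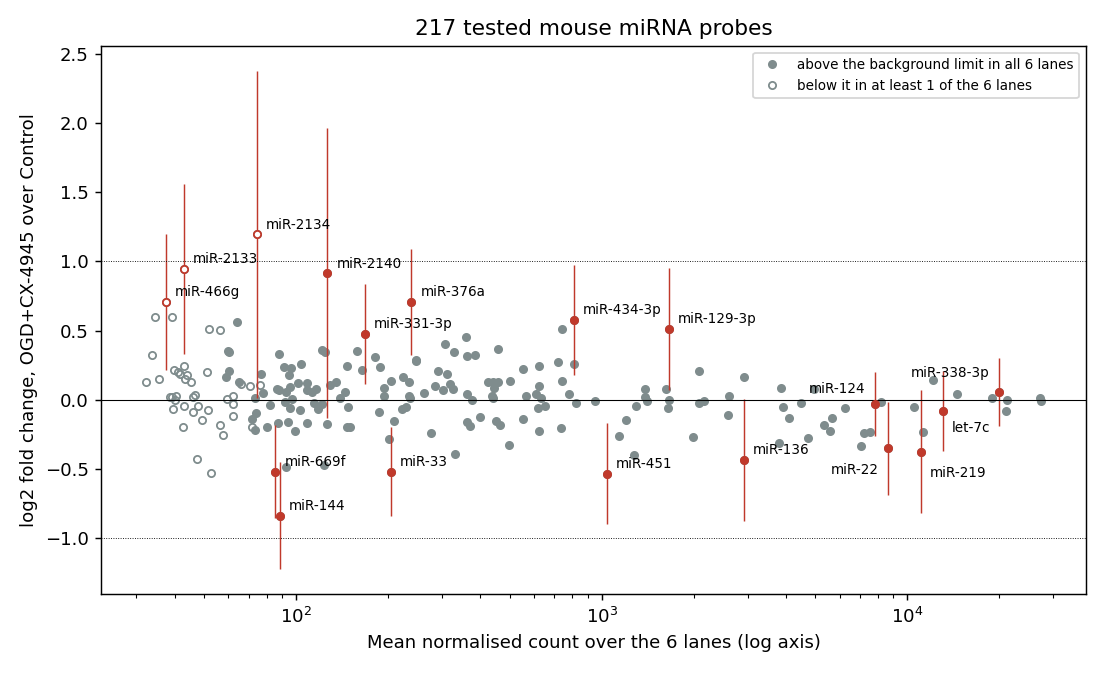
Log2 fold change, OGD+CX-4945 over Control (vertical axis), against the mean normalised count over the 6 lanes (horizontal, log axis) for the 217 tested probes. Labelled miRNAs are red with the 95% interval of the edgeR fit, hollow points were below the background limit in at least 1 lane, and dotted lines mark a 2-fold difference. Most points lie within 0.5 of 0, and miR-2134 (log2 fold change 1.20) is the only one beyond a 2-fold difference.

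Complete separation of the 3 lanes of OGD+CX-4945 from the 3 of Control was seen for 17 tested probes (7.83%). For 3 against 3, an exact permutation test gives complete separation a two-sided p of 0.10. The share of probes with it was no larger than that, so a lack of overlap alone does not set a probe apart. The 7 higher in every OGD+CX-4945 lane (3.23%) were miR-376a, miR-331-3p, miR-423-3p, miR-338-5p, miR-185, miR-107 and miR-466g, the last of which was below the background limit in all 3 Control lanes. The 10 lower in every OGD+CX-4945 lane (4.61%) were miR-144, miR-451, miR-33, miR-669f, let-7a, miR-204, miR-142-3p, miR-135a, miR-1927 and miR-1968.

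Among red blood cell miRNAs, miR-144 and miR-451 had lower means in OGD+CX-4945 than in Control, and miR-486 did not share that direction. miR-144, made with miR-451 from an erythroid transcript that GATA1 drives, had 69.7, 53.8 and 66.4 normalised counts in the OGD+CX-4945 lanes, against 124, 93.5 and 123 in the Control lanes. Every OGD+CX-4945 lane lay below every Control lane (log2 fold change -0.84, SE 0.18; edgeR's quasi-likelihood test, adjusted p = 0.0678), and the mean was 55.8% of that of Control. Its raw counts of 54 to 94 in OGD+CX-4945 stood near the limits of 47.5 to 60.6 in those lanes. With the negative-probe mean of each lane subtracted, the log2 fold change was -1.07.

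miR-451, which Argonaute2 rather than Dicer cuts to its mature form, had 1042, 850.1 and 658 normalised counts in OGD+CX-4945 and 1277, 1254 and 1159.7 in Control. The groups did not overlap, and the spread in OGD+CX-4945 was the wider (850.0 ± 192 against 1230.3 ± 62.2; log2 fold change -0.53, SE 0.17; edgeR adjusted p = 0.212). miR-486, also made in the erythroid lineage and in muscle, had 123, 82.7 and 89.0 in OGD+CX-4945 and 80.7, 117 and 78.9 in Control, with overlapping groups (0.09, SE 0.19). The summed level of the 3 ran from 814 to 1234 in OGD+CX-4945 and from 1362 to 1482 in Control. The list had a median of -0.53, where the median of all tested probes was 0.02, and 0 of its 3 members passed the test.

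In OGD alone, compared with the same Control lanes, miR-144 had 73.7, 64.2 and 88.0 normalised counts and miR-451 averaged 879 ± 92.3 (log2 fold changes over Control -0.58, SE 0.18, and -0.48, SE 0.17). Between OGD+CX-4945 and OGD the log2 fold changes were -0.26 (SE 0.19) for miR-144 and -0.05 (SE 0.17) for miR-451, neither past the threshold. The means of both were therefore below Control in the lanes without the drug as well.

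**Figure D2:**
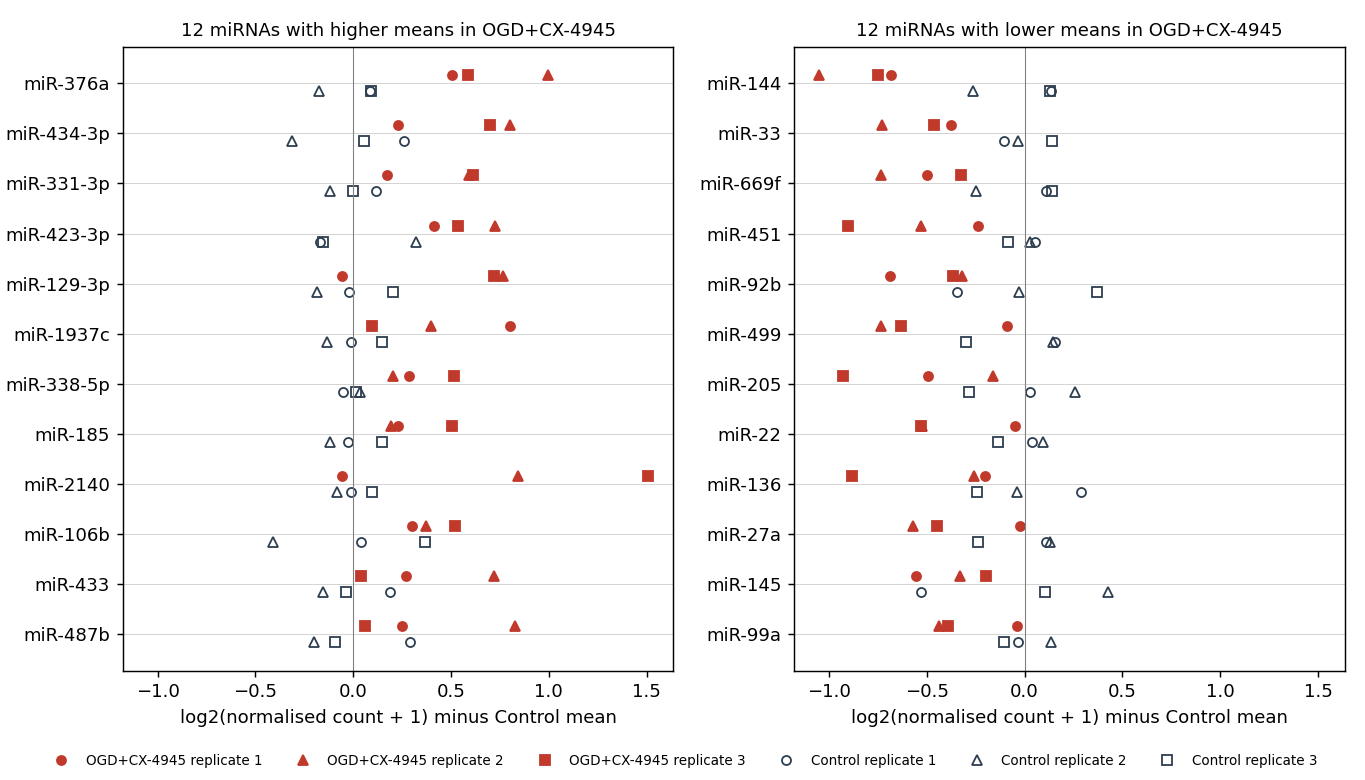
Each lane's log2(normalised count + 1) minus the Control mean (horizontal axis) for the 12 miRNAs with the smallest p among higher means (left) and the 12 among lower means (right), counting probes above the background limit in all 3 lanes of the higher group. Red filled symbols are OGD+CX-4945 and open dark symbols Control, and the symbol shape gives the replicate number within a group. The OGD+CX-4945 lanes of miR-144 lie at the lower end of its row, apart from the Control lanes, while for miR-129-3p and miR-2140 OGD+CX-4945 replicate 1 lies among the Control lanes.

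The Dlk1-Dio3 region of chromosome 12, which encodes a large set of miRNAs expressed from the maternal allele, gave several of the higher means. miR-376a had 256, 361 and 271 normalised counts in OGD+CX-4945 and 191, 159 and 192 in Control. Every OGD+CX-4945 lane was above every Control lane (log2 fold change 0.71, SE 0.18; edgeR adjusted p = 0.140), and the mean was 1.63-fold that of Control. Its relative miR-376b, whose hairpin is 241 bases away as given above, had 427 ± 137 in OGD+CX-4945 and 341 ± 76.0 in Control (0.32, SE 0.22), and miR-376c had 0.07. The contrast was largest for miR-376a among these relatives, and the probes were not tested against each other.

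Across the miR-379/miR-410 cluster, 22 of 43 probes were tested, and 20 had a higher mean, against 56.2% of all tested probes. The median log2 fold change was 0.14, the range -0.01 to 0.71, and 0 of the 22 passed the test. The shift came mostly from OGD+CX-4945 replicate 2: relative to the Control mean the lane medians of the list were 0.11, 0.53 and -0.11 in OGD+CX-4945 and 0.27, -0.12 and -0.09 in Control. Without that lane the median was -0.01. miR-487b, of the same cluster, followed the pattern with 311, 464 and 273 in OGD+CX-4945 and 320.3, 228 and 245 in Control (0.40, SE 0.23).

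The Rtl1-antisense group lies upstream in the same region, on the strand opposite the Rtl1 retrotransposon-derived gene. miR-434-3p had 750.1, 1115 and 1040.3 normalised counts in OGD+CX-4945 and 766, 515 and 666 in Control. OGD+CX-4945 replicate 1 lay below Control replicate 1, and the other OGD+CX-4945 lanes lay above all Control lanes (0.58, SE 0.19; edgeR adjusted p = 0.212). The other arm of its hairpin, miR-434-5p, had a log2 fold change of 0.04 (SE 0.15). miR-433 had 515 ± 128 in OGD+CX-4945 and 400.3 ± 49.3 in Control (0.36, SE 0.21), and miR-127 had 272 ± 75.4 and 223 ± 24.4 (0.28, SE 0.20).

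miR-136 stood apart from its neighbours, with 2882, 2778 and 1803 normalised counts in OGD+CX-4945 and 4049.9, 3229 and 2803 in Control (-0.43, SE 0.21). Its groups overlapped, since OGD+CX-4945 replicate 1 lay above Control replicate 3. Of the 5 tested members of this group 4 had higher means, with a median of 0.28, and 0 passed the test. The median became 0.04 when OGD+CX-4945 replicate 2, the high lane, was left out. Beside OGD alone, the median of the group was 0.38 for OGD+CX-4945 over OGD and -0.12 for OGD over Control, and the corresponding medians of the miR-379/miR-410 cluster were 0.28 and -0.06.

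**Figure D3:**
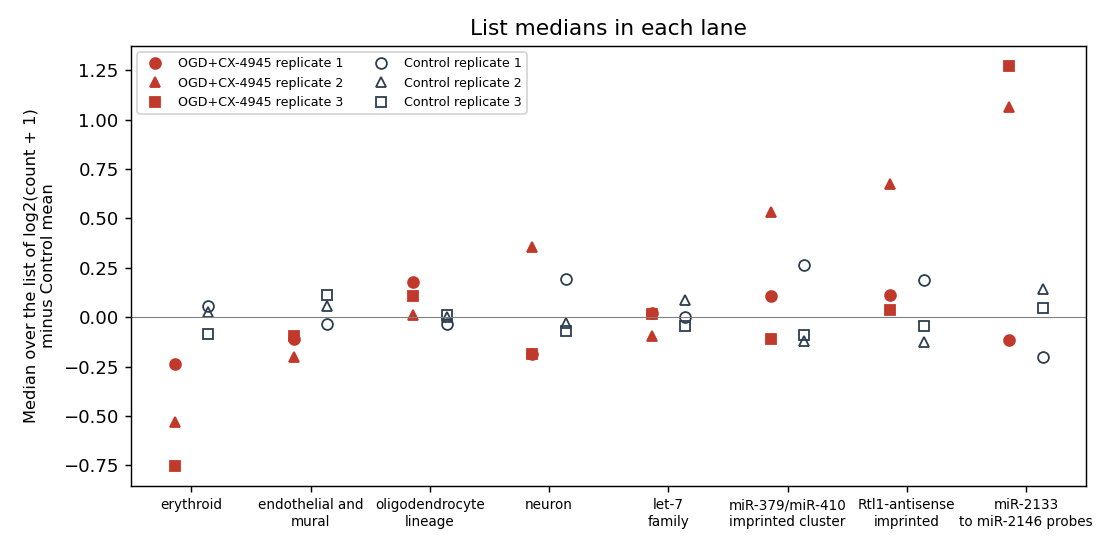
For 8 lists of miRNAs, the median over the members of log2(normalised count + 1) minus the Control mean in each lane (vertical axis). Red filled symbols are OGD+CX-4945 and open dark symbols Control. The erythroid list lies below 0 in all 3 OGD+CX-4945 lanes (-0.24, -0.53 and -0.75), while OGD+CX-4945 replicate 2 alone is high in both imprinted lists (0.53 and 0.68) and replicate 1 is the low lane in the miR-2133 to miR-2146 probes (-0.11).

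Oligodendrocyte miRNAs gave mixed values. miR-338-3p, which promotes oligodendrocyte differentiation and was the 5th most abundant probe, had 20442, 17169.7 and 23173 normalised counts in OGD+CX-4945 and 19248, 19621 and 19559.6 in Control. The OGD+CX-4945 lanes lay on both sides of the tight Control lanes (0.06, SE 0.12). The 5p arm of the same hairpin had 64.4, 60.8 and 75.6 in OGD+CX-4945 and 50.8, 54.0 and 53.3 in Control. Its groups did not overlap (0.35, SE 0.17; edgeR adjusted p = 0.597), but its raw counts of 39, 41 and 52 in Control were not far above the background limits, which reached 33.7 there. In OGD+CX-4945 replicate 1 its raw count was just above that lane's limit of 60.6.

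miR-219, which acts with miR-338 in oligodendrocyte maturation, had 7629, 9288 and 12022 normalised counts in OGD+CX-4945 and 10144, 12269.7 and 15144 in Control. Its groups overlapped, with the highest OGD+CX-4945 lane above the lowest Control lane (-0.38, SE 0.21; edgeR adjusted p = 0.606). Its count also followed the ligation controls over the 12 lanes with group means removed (slope 0.48 log2 units per doubling of the ligation count), and with that count as a covariate the log2 fold change was -0.69 (SE 0.18; edgeR adjusted p = 0.198). miR-138, the remaining marker, had 0.13 (SE 0.20). Of the 4 members 3 had higher means, with a median of 0.09, and the summed level ran from 26786 to 35465 in OGD+CX-4945 and from 29706 to 34979 in Control.

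The miR-29 family, high in astrocytes and known to repress collagens, had means that differed by less than their spread. miR-29a had 3832 ± 870.1 in OGD+CX-4945 and 3976 ± 662 in Control, and miR-29b and miR-29c had log2 fold changes of -0.13 (SE 0.24) and 0.09 (SE 0.20). OGD+CX-4945 replicate 1 was the lowest of the 6 lanes for all 3, and each followed the ligation count with a positive slope (0.45, 0.57 and 0.55 for miR-29a, miR-29b and miR-29c). The family median of -0.05 became -0.35 with the ligation covariate, 0.12 without OGD+CX-4945 replicate 1 and 0.09 without Control replicate 3.

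Neuronal and axonal miRNAs were centred on 0, with a median of 0.02 over 9 tested members. miR-124, the most neuron-specific of them, had 6938, 8113 and 8111 normalised counts in OGD+CX-4945 and 7662, 8052 and 7944 in Control (-0.03, SE 0.11), and its 95% interval ran from -0.26 to 0.20. miR-129-3p, enriched in neurons and in synaptic compartments, had 1304, 2302 and 2231 in OGD+CX-4945 and 1337, 1192 and 1563 in Control. OGD+CX-4945 replicates 2 and 3 were the highest of the 6 lanes and replicate 1 lay within Control (0.51, SE 0.21; edgeR adjusted p = 0.422). miR-129-5p, from the opposite arm, had 67.6, 117 and 109 in OGD+CX-4945 and 84.6, 67.2 and 83.0 in Control, with OGD+CX-4945 replicate 1 again the low lane of its group (0.33, SE 0.21). With the ligation count as a covariate the log2 fold changes were 0.16 (SE 0.16) for miR-129-3p and 0.00 for miR-129-5p.

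Vascular miRNAs mostly had lower means in OGD+CX-4945 than in Control, and leukocyte miRNAs had means on both sides of Control, none past the test. miR-145, of vascular smooth muscle, had 954, 1113 and 1222 normalised counts in OGD+CX-4945 and 969, 1879 and 1506 in Control. Control replicate 1 lay within the OGD+CX-4945 range and the other Control lanes above it (-0.40, SE 0.21; edgeR adjusted p = 0.597). miR-126-3p, made in endothelium from an intron of Egfl7, had 12316, 9320.3 and 9437 in OGD+CX-4945 and 12237, 13532 and 10852 in Control (-0.24, SE 0.13). Its count followed the ligation controls (slope -0.28), and with that count as a covariate the log2 fold change was -0.07 (SE 0.10). Over the 8 tested endothelial and mural members 6 had lower means, where 43.8% of all tested probes did. The median of the 8 was -0.16, and 0 passed the test. Their lane medians did not overlap, at -0.11, -0.20 and -0.10 in OGD+CX-4945 and -0.04, 0.06 and 0.11 in Control. Those of the erythroid list and of miR-204 did not overlap either, and 0 of the 8 members separated the groups singly. The median of the 8 was -0.10 with the ligation covariate and -0.09 without Control replicate 3.

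miR-150, of mature lymphocytes, had 1802 ± 273 in OGD+CX-4945 and 2173 ± 287 in Control (-0.27, SE 0.17). It also followed the ligation count (slope -0.38), and with that covariate its log2 fold change was -0.03 (SE 0.12). miR-142-3p, made throughout the haematopoietic lineage, had 354, 321 and 359 in OGD+CX-4945 and 366, 370.0 and 446 in Control, and the groups did not overlap (-0.19, SE 0.15; edgeR adjusted p = 0.763). The opposite arm, miR-142-5p, had 417, 405 and 279.7 in OGD+CX-4945 and 290.4, 338 and 238 in Control, a higher mean (0.35, SE 0.25). miR-146b had a log2 fold change of 0.32 (SE 0.25), and it passed the background limit in 1 OGD+CX-4945 lane and in no Control lane. The myeloid miR-223 had 216 ± 50.7 and 227 ± 38.0 (-0.07, SE 0.20). Of the 7 microglia and leukocyte members 3 had higher and 4 lower means, with a median of -0.01, and miR-155 passed the background limit in none of the 6 lanes.

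miR-33 was the non-erythroid miRNA with the smallest p among lower means. It lies in an intron of Srebf2 and represses Abca1, a cholesterol exporter. It had 185, 145 and 174 normalised counts in OGD+CX-4945 and 223, 234 and 264 in Control, so that each OGD+CX-4945 lane lay below each Control lane (-0.52, SE 0.15; edgeR adjusted p = 0.212). Its slope on the ligation count was 0.02, and with that covariate the log2 fold change was -0.54 (SE 0.16). In OGD alone it had 215 ± 15.1, a log2 fold change of -0.16 (SE 0.15) over Control, and OGD+CX-4945 over OGD gave -0.36 (SE 0.15), and 0 of 217 probes (0%) passed the threshold in either comparison. At an unadjusted p under 0.05 by the same test there were 12 probes for OGD over Control (5.53%) and 16 for OGD+CX-4945 over OGD (7.37%). The other tested members of the lipid metabolism list, miR-103 and miR-107, which lie in introns of pantothenate kinase genes and differ little in sequence, had higher means (0.27, SE 0.17, and 0.21, SE 0.15). miR-103 followed the ligation count (slope 0.39), and with that covariate its log2 fold change was 0.03 (SE 0.12).

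Further miRNAs with higher means were measured at low to moderate counts. miR-331-3p had 158, 212 and 215 normalised counts in OGD+CX-4945 and 152, 129 and 140.4 in Control, and OGD+CX-4945 replicate 1 lay just above the highest Control lane (0.48, SE 0.17; edgeR adjusted p = 0.306). In OGD alone it had 176 ± 27.1, and the log2 fold change over Control was 0.33 (SE 0.17). miR-423-3p had 68.7, 85.7 and 74.9 in OGD+CX-4945 and 45.6, 64.5 and 46.1 in Control, with no overlap (0.56, SE 0.21; edgeR adjusted p = 0.334). Its raw counts in OGD+CX-4945 replicate 1 and Control replicate 1 were near the background limits of those lanes, 60.6 and 33.7. miR-185, encoded in the mouse region that corresponds to the human 22q11.2 deletion, had 378, 369.7 and 458 in OGD+CX-4945 and 316, 298 and 358 in Control, where the lowest OGD+CX-4945 lane lay just above the highest Control lane (0.31, SE 0.15). miR-106b, which lies in an intron of Mcm7 and represses cell-cycle inhibitors, had 137 ± 10.8 in OGD+CX-4945 and 106 ± 28.3 in Control (0.36, SE 0.20).

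Several abundant miRNAs with lower means also followed the ligation controls. Over the 12 lanes, with group means removed, 25 of the 217 tested probes (11.5%) had a slope on the ligation count with an adjusted p under 0.05, and 5 of the 24 miRNAs plotted lane by lane were among them. miR-22, which represses the histone deacetylase Hdac4, had 9310.1, 6712 and 6687 normalised counts in OGD+CX-4945 and 9909, 10313 and 8788 in Control (-0.35, SE 0.16; edgeR adjusted p = 0.566). OGD+CX-4945 replicate 1, the lane with the lowest ligation count of its group, lay among the Control lanes, and the 2 others lay below all of them. miR-27a, a repressor of adipogenesis, had 7670.4, 5247 and 5723 in OGD+CX-4945 and 8419, 8527 and 6606 in Control (-0.34, SE 0.17), with replicate 1 again within the Control range. miR-99a, a repressor of Mtor, had 5047, 3822 and 3949 in OGD+CX-4945 and 5066, 5694 and 4811 in Control (-0.28, SE 0.14).

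With the ligation count as a covariate the log2 fold changes became -0.09 for miR-22, -0.04 for miR-27a, -0.10 for miR-136 and -0.09 for miR-99a, each less than 1 SE from 0. That of miR-144 became -0.93 (SE 0.21), that of miR-376a 0.58 (SE 0.20) and that of miR-451 -0.43 (SE 0.17). Since the ligation count differed between the groups in mean but with overlap, the covariate shares part of its variation with the group.

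**Figure D4:**
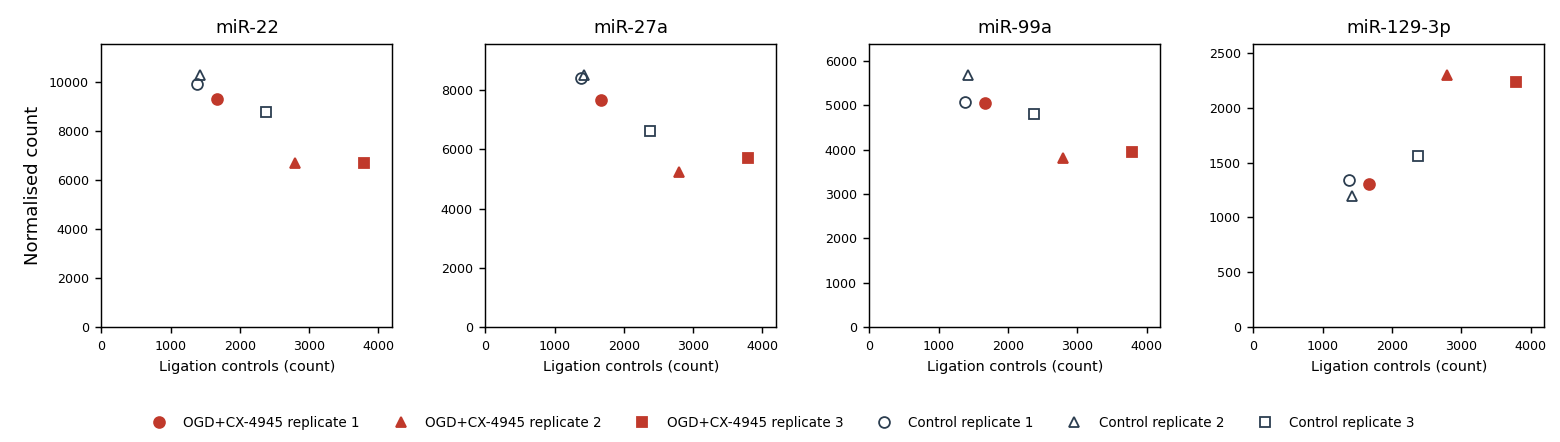
Normalised count (vertical axes, starting at 0) of miR-22, miR-27a, miR-99a and miR-129-3p against the geometric mean count of the 3 positive ligation controls (horizontal axes) in the 6 lanes. Red filled symbols are OGD+CX-4945 and open dark symbols Control. OGD+CX-4945 replicate 1 (ligation count 1667) lies beside the Control lanes in all 4 panels, and replicates 2 and 3 (2793 and 3787) lie lower for miR-22, miR-27a and miR-99a and higher for miR-129-3p.

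Markers of tissues next to the nerve were low or few, apart from miR-204, which was abundant in all 6 lanes. miR-499, made in muscle from an intron of Myh7b, had 133, 84.7 and 91.1 normalised counts in OGD+CX-4945 and 158, 157 and 115 in Control, with overlap at OGD+CX-4945 replicate 1 (-0.47, SE 0.19; edgeR adjusted p = 0.406). The 4 tested muscle probes summed to 239 to 295 in OGD+CX-4945 and 285 to 374 in Control, and miR-133b passed the background limit in none of the 6 lanes. miR-205, of stratified epithelium, had 43.3, 54.8 and 31.8 in OGD+CX-4945 and 62.5, 73.7 and 50.2 in Control (-0.53, SE 0.22). It passed the background limit in 1 of 3 OGD+CX-4945 lanes and in all 3 Control lanes. Its raw counts were 41, 55 and 45 in OGD+CX-4945 and 48, 56 and 49 in Control. The limits were 47.5 to 60.6 in OGD+CX-4945 and at most 33.7 in Control. All its raw counts were above 33.7, so the difference in lanes passed reflects the limits. miR-204, of retinal pigment epithelium, had 4660.3, 5206 and 5181 in OGD+CX-4945 and 5389, 5696 and 5962 in Control, and although the groups did not overlap the difference was small (-0.18, SE 0.12).

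Hypoxia, injury and stress miRNAs had means within their spread of Control. miR-210, which hypoxia-inducible factor induces, had 336, 304 and 457 normalised counts in OGD+CX-4945 and 339, 346 and 384 in Control (0.04, SE 0.16). The OGD+CX-4945 lanes lay on both sides of the Control lanes, and the 95% interval of the log2 fold change was -0.31 to 0.38. miR-21, induced in many kinds of injury, had 1669.7 ± 309.7 and 1583 ± 376 (0.08, SE 0.21). It followed the ligation count (slope 0.50), and with that covariate its log2 fold change turned to -0.24 (SE 0.17). miR-146a, induced by NF-kappaB, had 569 ± 30.0 and 557 ± 36.5 (0.03, SE 0.15), and the p53 target miR-34a had 50.3 ± 11.9 and 52.5 ± 5.97 (-0.07, SE 0.23).

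let-7c and miR-328 had means near Control in OGD+CX-4945 and lower means in OGD alone. let-7c, whose family favours differentiation over growth, had 11326, 13155 and 13520.1 normalised counts in OGD+CX-4945 and 12843, 14650.5 and 12686 in Control, with overlap (-0.08, SE 0.14). miR-328, which represses Bace1 in mouse, had 157, 223 and 162 in OGD+CX-4945 and 179.7, 208 and 189 in Control (-0.09, SE 0.19). The log2 fold changes of OGD+CX-4945 over OGD were 0.37 (SE 0.14) for let-7c and 0.45 (SE 0.19) for miR-328, and those of OGD over Control -0.45 (SE 0.14) and -0.54 (SE 0.19). None of these passed the threshold (edgeR adjusted p = 0.628 for both over OGD, 0.430 for let-7c and 0.484 for miR-328 in OGD over Control), and the comparisons share samples.

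let-7a was lower in every OGD+CX-4945 lane, at 6642, 7428 and 6769 against 7666, 8951 and 7893 in Control (-0.23, SE 0.15; edgeR adjusted p = 0.673). Its log2 fold changes were 0.18 (SE 0.15) for OGD+CX-4945 over OGD and -0.41 (SE 0.15) for OGD over Control, and those of let-7f were 0.29 and -0.40 (SE 0.17 each). Members of the family were not tested against each other. Of the 9 let-7 family members 6 had lower means, with a range of -0.23 to 0.16 and a median of -0.04.

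The 3 largest log2 fold changes came from the probes miR-2133 to miR-2146, of which miR-2133 and miR-2134 were below the background limit in some of the 6 lanes. The list had 5 tested members, all with higher means and a median of 0.92. miR-2134 had raw counts of 38, 106 and 230 in OGD+CX-4945 and 51, 34 and 27 in Control (log2 fold change of the normalised counts 1.20, SE 0.53). miR-2133 had raw counts of 29, 67 and 101 in OGD+CX-4945 and 17, 28 and 29 in Control, and it passed the background limit in 2 OGD+CX-4945 lanes and in no Control lane (0.95, SE 0.29). miR-2140 had 80, 159 and 357 in OGD+CX-4945 and 67, 63 and 92 in Control (0.92, SE 0.47). miR-2141, the most abundant of them, had 386, 1022 and 1209.8 normalised counts in OGD+CX-4945 and 530.0, 678 and 630.1 in Control (0.51, SE 0.38), and miR-2146 had 89.8, 285 and 156 in OGD+CX-4945 and 105, 150.1 and 159 in Control (0.35, SE 0.37). The OGD+CX-4945 lanes ranked in the order of their ligation counts in 4 of the 5 probes, miR-2146 being the exception. Over the 12 lanes, with group means removed, 0 of the 5 had a slope on that count with an adjusted p under 0.05. With the ligation covariate the median of the list was 0.24. The uncorrected median became 1.22 when OGD+CX-4945 replicate 1 was left out and 0.44 when replicate 3 was. In OGD alone the median over Control was -0.05, with 0.77 (SE 0.55) for miR-2134 and -0.13 (SE 0.33) for miR-2133.

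miR-466g, of the Sfmbt2 intronic cluster, had raw counts of 38, 58 and 58 in OGD+CX-4945 and 22, 26 and 22 in Control, all Control values being below the background limit, and it passed the limit in 2 OGD+CX-4945 lanes (0.71, SE 0.23). As for miR-2133, its p is not independent of the filter and is not given. The background of the OGD+CX-4945 lanes was also higher, at 19.6 to 23.8 against 14.6 to 15.5 counts. With the background of each lane subtracted the log2 fold change of miR-466g was 1.46. That value rests on Control counts below the limit, so its size is not reliable, and a part from background was not tested. miR-669f, of the same cluster, had 70.8, 59.8 and 79.8 normalised counts in OGD+CX-4945 and 108, 84.3 and 111 in Control, without overlap (-0.52, SE 0.16; edgeR adjusted p = 0.212). In OGD alone it had 70.4 ± 6.14, which gave the same log2 fold change over Control of -0.52. The 8 tested members of the cluster had a median of -0.11.

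Of the 3 tested probes that read fragments of transfer RNA, 0 passed the test. miR-1937c had 528, 399 and 323 normalised counts in OGD+CX-4945 and 299.5, 275 and 335 in Control, with OGD+CX-4945 replicate 3 inside the Control range (0.45, SE 0.21; edgeR adjusted p = 0.577). miR-720 had 27451, 17655 and 16297 in OGD+CX-4945 and 20595, 22159 and 22319.6 in Control (-0.08, SE 0.18), where replicate 1 was the highest and the other OGD+CX-4945 lanes the lowest of the 6. The shared probe of miR-1937a and miR-1937b had 724, 659 and 518 in OGD+CX-4945 and 542, 598 and 744 in Control (0.01, SE 0.22).

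In the remaining families the medians lay between -0.19 and 0.16 and 0 members passed the test. The 5 members of the miR-23/27/24 clusters had a median of 0.16 and ranged from -0.34 (miR-27a) to 0.23 (miR-27b). miR-30a, the member of the miR-30 family with the smallest p, had 884 ± 109.5 in OGD+CX-4945 and 739.8 ± 94.7 in Control (0.26, SE 0.17), and the family median was 0.05. miR-362-3p, of the Clcn5-intron cluster, had 140.1 ± 19.0 and 161 ± 3.17 (-0.20, SE 0.14), and all 3 tested members of that cluster had lower means. miR-92b, of the family of miR-92a, had 65.5, 84.7 and 81.9 in OGD+CX-4945 and 83.3, 104 and 137 in Control, overlapping by OGD+CX-4945 replicate 2 and Control replicate 1 (-0.49, SE 0.19; edgeR adjusted p = 0.362).

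**Figure D5:**
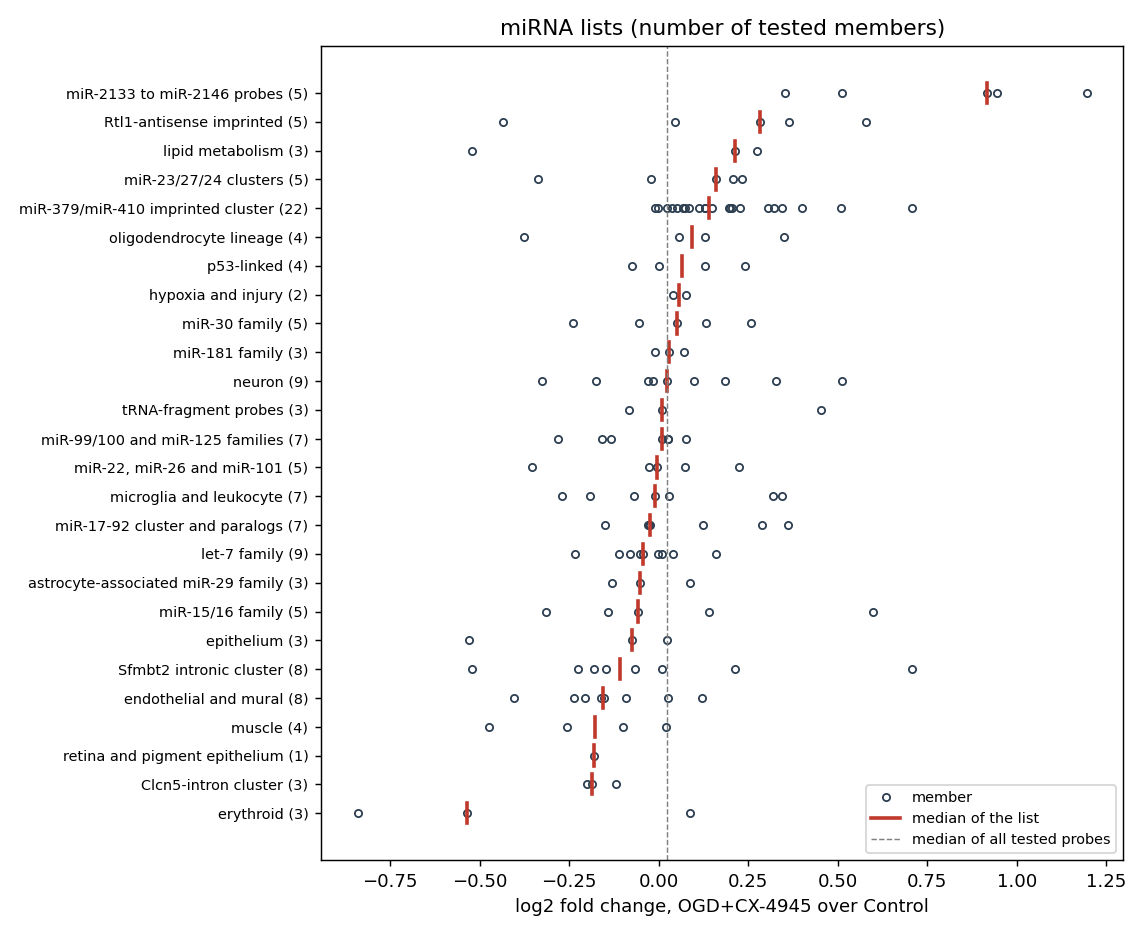
Log2 fold change, OGD+CX-4945 over Control (horizontal axis), of each tested member of 26 lists, with the number of tested members in parentheses. Open circles are members, red bars the median of a list and the dashed line the median of all tested probes (0.02). The erythroid list has the lowest median (-0.53) and the miR-2133 to miR-2146 probes the highest (0.92), and the other medians lie between -0.19 and 0.28.

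The most abundant miRNAs were almost level between the groups. The 10 most abundant probes took 49.9% of the miRNA count in OGD+CX-4945 and 48.4% in Control on average. miR-181a had 27213 ± 4311 normalised counts in OGD+CX-4945 and 27407 ± 3175 in Control (-0.01, SE 0.12), and miR-125b-5p had 27235 ± 2081 and 27067 ± 2143 (0.01, SE 0.10). let-7g had 21236 ± 2339 and 21244 ± 1406, and miR-16 had 12718 ± 1435 and 11545 ± 964 (0.14, SE 0.12). For miR-125b-5p the 95% interval of the log2 fold change was -0.20 to 0.21, among the narrowest of those named here.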

How the data were processed

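Small RNA of isolated optic nerves was profiled on an nCounter miRNA panel, per the labels' protocols. The deposited values used for the main results are the raw barcode count of each probe in each lane, per the file headers, and they are whole numbers that sum to a different total in each lane. A deposited table of processed signal, whose making is not given in the sources used here, served only as an alternative, on log2(value + 1). Samples were grouped by the agent field of the labels, 4 groups of 3. A nameless line of the table (1) was dropped. Probes not tested held 1.21% of the mouse miRNA count, and 333 never passed the background limit.

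Probes were tested with the quasi-likelihood test of edgeR 4.0.16 (R 4.3.3), scaled by TMM and with robust estimates of the spread. The 4 groups of all 12 samples were fitted together, and p-values were adjusted by Benjamini-Hochberg over the 217 probes, with 0.05 as threshold. The common biological coefficient of variation was 16.6%. The fit was tested on simulated data. DESeq2 1.42.0, limma 3.58.1, other scalings, filters, background subtraction, a ligation covariate, a block by title-number set and leaving out each lane were the alternatives.

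The named miRNAs were the 12 with the smallest p in each direction among those above the limit in all 3 lanes of the higher group, the member of each of 26 lists with the smallest p, the 10 most abundant, and miRNAs that mark cell types or stress. miR-486, miR-127, miR-376b, miR-376c, miR-434-5p, miR-129-5p, miR-142-5p, miR-146b, let-7f, miR-1937a, miR-1937b, miR-2141, miR-2146, miR-27b, miR-103, miR-107, miR-2134, miR-466g, miR-135a, miR-1927 and miR-1968 fall outside that rule and were chosen after their values were seen. The comparison, the members and the lists were chosen with earlier results of these data known. Of the 217 probe names, 43 equal a mature name in the RefSeq table. Closely related miRNAs can share signal on a hybridisation panel, and a level is not compared between probes except as a count.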

Additional observations from a re-analysis of the deposited data

How the results depend on the processing

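With edgeR's test as reported, 0 probes were called and 18 had an unadjusted p under 0.05. The called count was 2 with DESeq2, 1 with DESeq2's size factors in place of TMM, 1 with the replicate block by title-number sets and 0 with the block and the ligation covariate together; leaving out each lane in turn gave 0 to 6. The count at an unadjusted p under 0.05 was 4 when scaled by the mRNA probes (4 higher, 0 lower, where the all-probe median moved to 0.11), 11 when scaled by the ligation controls (2 higher, 9 lower, median -0.19), 34 of 566 with no filter, 11 of 150 for probes above the limit in all 12 lanes, 32 with the replicate block (16 higher, 16 lower) and 1 on the deposited processed signal (median 0.13); leaving out each lane gave 11 to 38. The block sorts lanes by the leading digits of the numbers in the sample titles, which the labels do not explain; lanes of the same set deviated from their group means with correlations of 0.264, -0.213 and 0.462, not every lane correlated best with its own set, and the numbers were not taken to pair the samples. miR-144 was the probe called with the block. Of 451 log2 fold changes of the 24 miRNAs plotted lane by lane under 19 alternatives, 448 kept their direction, and 3 reversed under the block with the ligation covariate, to -0.11 for miR-487b, 0.093 for miR-27a and 0.048 for miR-99a. Of 603 values of the 32 other named miRNAs, 90 had the other sign, and 21 of 441 list medians moved by more than 1 SD between lanes. The cause of these changes was not tested, and some alternatives also had fewer lanes or probes. Near the background limits, which reached 60.6 counts, the precision is set by background as well as by counts.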
